A study of Mus musculus with 5 samples.

Results

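The genes described here are 10 genes of the endoplasmic reticulum (ER) folding machinery and its stress response: Hspa5, Hsp90b1, Calr, Pdia4, Dnajb9, Sdf2l1, Creld2, Herpud1, Xbp1 and Ddit3. They were chosen by name, each symbol matched 1 Ensembl gene among the 27729 genes of each library, and the annotation holds a second Ensembl gene named Ddit3 that is not among them. Each had at least 10 expected counts in at least 1 library, as did 13346 genes in all. The study followed mouse embryonic fibroblasts (MEFs) of the ICR strain while a defined induction medium, named 6C in the labels and 5C in the study, was used to convert them to neuron-like cells. The medium was DMEM/F12 with N2 supplement, basic FGF, LIF, vitamin C and 2-mercaptoethanol, and the cells had been isolated from mid-gestation embryos with the head and organs removed. RNA was taken on day 0, before the change from serum-containing MEF medium, and on days 2, 5, 10 and 14 after the change of medium, with 1 library on each day. The groups carried no transgene or deletion, and day 0 therefore differs from every later day in medium as well as in time.

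With 1 library per day no difference between days has a replicate check, and no test was run. Intervals below are exact 95% intervals from the counts. They cover counting error only, because 1 library per day does not measure variation between cultures or libraries. Reads without molecular identifiers are not independent molecules, so the intervals may be too narrow even for counting error. All changes from day 0 share 1 day 0 library. RNA came from whole wells, so fewer cells of a type and less RNA per cell cannot be told apart. The libraries held between 2253748 and 3890334 expected counts, the fewest on day 2, where Gm42418, a gene overlapping ribosomal RNA, took 4.79% of the counts against at most 0.109% on the other days. All 9 fibroblast markers had 10 or more expected counts on every day, with a summed level between 13912 and 26970 TPM (transcript abundance scaled by transcript length). The 8 Schwann cell and neural crest markers summed to 12.4 TPM on day 0 and 2040 TPM on day 14, and the 8 macrophage markers were at 35.6 TPM on day 0 and highest on day 5 at 460 TPM. Of the 10 neuron markers, 5 had 10 or more expected counts on day 0 and 4 on day 14. Rbfox3 was at 0 on every day, Dcx on every day after day 0 and Elavl4 on day 14, while the sum of the list went from 133 to 1222 TPM. Epithelial and endothelial markers were at most 110 and 22.9 TPM in sum. The part of these other cell types in the values below was not tested.

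Proteins that enter the ER are bound by chaperones such as BiP, encoded by Hspa5, joined by disulfide bonds through protein disulfide isomerases, and held by the lectins calreticulin and calnexin until they fold. When unfolded protein accumulates, the sensors IRE1, ATF6 and PERK start the unfolded protein response. IRE1 splices the Xbp1 messenger RNA, ATF6 is cut to release a transcription factor, and PERK phosphorylates eIF2alpha, which raises translation of ATF4 and, through it, the transcription factor CHOP encoded by Ddit3. Fibroblasts secrete much collagen and are known for a well-developed ER.

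Many promoters of this response carry the ER stress response element (ERSE), which ATF6 is known to bind together with NF-Y. It was searched as CCAAT, any 9 bases and CCACG on both strands of the RefSeq promoters, which run from 250 bases before to 50 bases after each gene start on GRCm38.p6, whose primary assembly is mm10. The sequences are shown because several members share this element. It is known from promoters of this response, so its share among the members is a description and not an independent finding. It was present in the promoters of 4 of the 10 genes, against 39 of 32851 promoters (0.119%). They read as follows, 5′ to 3′ on the strand that holds CCAAT first, with the 2 fixed parts of the element in capitals and 20 bases on either side (5 for Hspa5, whose element lies in the first exon of a longer annotated transcript).
Hspa5, chr2:34772020-34772048, gene strand: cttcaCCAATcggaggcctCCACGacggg
Hsp90b1, chr10:86705618-86705676, gene strand: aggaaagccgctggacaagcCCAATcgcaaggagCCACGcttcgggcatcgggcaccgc
Hsp90b1, chr10:86705513-86705571, opposite strand: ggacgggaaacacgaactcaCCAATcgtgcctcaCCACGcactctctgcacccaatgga
Calr, chr8:84847055-84847113, opposite strand: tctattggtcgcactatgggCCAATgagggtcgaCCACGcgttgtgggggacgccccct
Creld2, chr15:88819500-88819558, opposite strand: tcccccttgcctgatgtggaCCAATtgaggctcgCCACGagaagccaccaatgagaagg
The element began 65 bases before the RefSeq start in Hspa5, and Hsp90b1 was the only member that held 2 matches, 212 and 107 bases before its start.

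Herpud1 held the related ERSE-II, searched as ATTGG, any 1 base and CCACG, which 12 of the 32851 promoters (0.0365%) contained. The same promoter was the only one of the 10 with TTGCATCA, a form of the amino acid response element that ATF4 is known to use, found in 0.895% of all promoters. Both are shown in capitals, each with 20 bases on either side.
Herpud1 ERSE-II, chr8:94386357-94386407, gene strand: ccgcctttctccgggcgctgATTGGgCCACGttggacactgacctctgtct
Herpud1 amino acid response element, chr8:94386297-94386344, gene strand: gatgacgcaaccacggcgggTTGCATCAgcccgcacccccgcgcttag
The XBP1 element TGACGTGG, present in 0.676% of promoters, was found in none of the 10 windows. CCACG by itself, which every ERSE and ERSE-II contains, was in 8 of the 10 and in 32.8% of all promoters. Pdia4, Dnajb9, Sdf2l1, Xbp1 and Ddit3 held neither ERSE nor ERSE-II in these windows.

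BiP, the HSP70 chaperone of the ER, is encoded by Hspa5 (ENSMUSG00000026864, chr2:34771970-34777547, plus strand, mm10). Its normalized count, the expected count scaled by the trimmed mean of M values (TMM), was 3236 (day 0), 2453 (day 2), 3378 (day 5), 1896 (day 10) and 3389 (day 14). Days 0, 5 and 14 lay together at the top, with intervals of the difference between neighbours that held 0, and day 10 was lowest. Day 10 lay 1.71-fold below day 0 (log2 change −0.77, interval −0.85 to −0.70), and the day 14 change was 0.07 (−0.001 to 0.13). Hsp90b1 (ENSMUSG00000020048, chr10:86690209-86705509, minus strand) encodes GRP94, the HSP90 chaperone of the ER. It stood at 3807, 4085, 4195, 2699 and 3020 normalized counts in time order, from day 0 to day 14. Days 2 and 5 were highest and day 10 lowest, with a log2 change from day 0 of −0.50 (−0.56 to −0.43) there; the day 14 value was −0.33 (−0.40 to −0.27). Hsp90b1 shares 415 exonic bases with 1810014B01Rik on the opposite strand, and this gene had at most 7.55 expected counts in any library.

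Calreticulin, a lectin chaperone that also buffers ER calcium, is encoded by Calr (ENSMUSG00000003814, chr8:84841850-84846934, minus strand). It was the most abundant of the 10 genes on every day by TPM, between 1307 and 2194 TPM. Its normalized counts were 9037, 9698, 6164, 3148 and 4686 in time order, and all 4 steps in the order of its days were larger than counting error. Calr was 2.87-fold lower on day 10 than on day 0 (log2 change −1.52, −1.57 to −1.47) and 1.93-fold lower on day 14 (−0.95). These sizes and the order of the days depend on the scale. For day 10 quantile normalization gave −0.40 and TPM −0.31, and for day 14 they gave −0.074 and 0.063. The day 5 change was −0.55 in normalized counts, 0.32 with quantile normalization and 0.30 in TPM. In TPM, not adjusted for the shift of all genes described below, day 5 was highest and day 2 lowest. Pdia4 (ENSMUSG00000025823, chr6:47796141-47813430, minus strand), a protein disulfide isomerase, went the other way. Its normalized counts were 501, 432, 855, 749 and 846 in time order, so that the last 3 days were all above the first 2. The log2 change of Pdia4 from day 0 was 0.77 (0.62 to 0.93) by day 5, and the day 14 value was 0.75 (0.60 to 0.92).

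Dnajb9 (ENSMUSG00000014905, chr12:44205559-44210326, minus strand) encodes ERdj4, a J-domain partner of BiP that is known as a target of spliced XBP1. Its normalized counts were 44.5, 32.6, 108, 101 and 131 in time order. Here too the last 3 days lay above the first 2, and the intervals of days 5, 10 and 14 did not separate neighbours. Dnajb9 was the only member over 2-fold above day 0 on any day on this scale: it was 2.39-fold higher by day 5 (log2 change 1.25, 0.77 to 1.80) and 2.91-fold higher by day 14, with 2.25-fold for day 10. The library counts behind these values were low, with 45 expected counts on day 0 and 18 on day 2. Sdf2l1 (ENSMUSG00000022769, chr16:17130138-17132383, minus strand), a binding partner of ER J-domain proteins, had 57.8, 74.2, 67.4, 42.8 and 76.9 normalized counts. No neighbours in the order of its days could be told apart at this depth. Creld2 (ENSMUSG00000023272, chr15:88819646-88826683, plus strand), a secreted ER protein with EGF-like repeats, had 255, 266, 229, 117 and 179. It was 2.17-fold lower on day 10 than on day 0 (log2 change −1.12, −1.42 to −0.84), and days 2, 0 and 5 were not separated by their intervals.

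**Figure D1:**
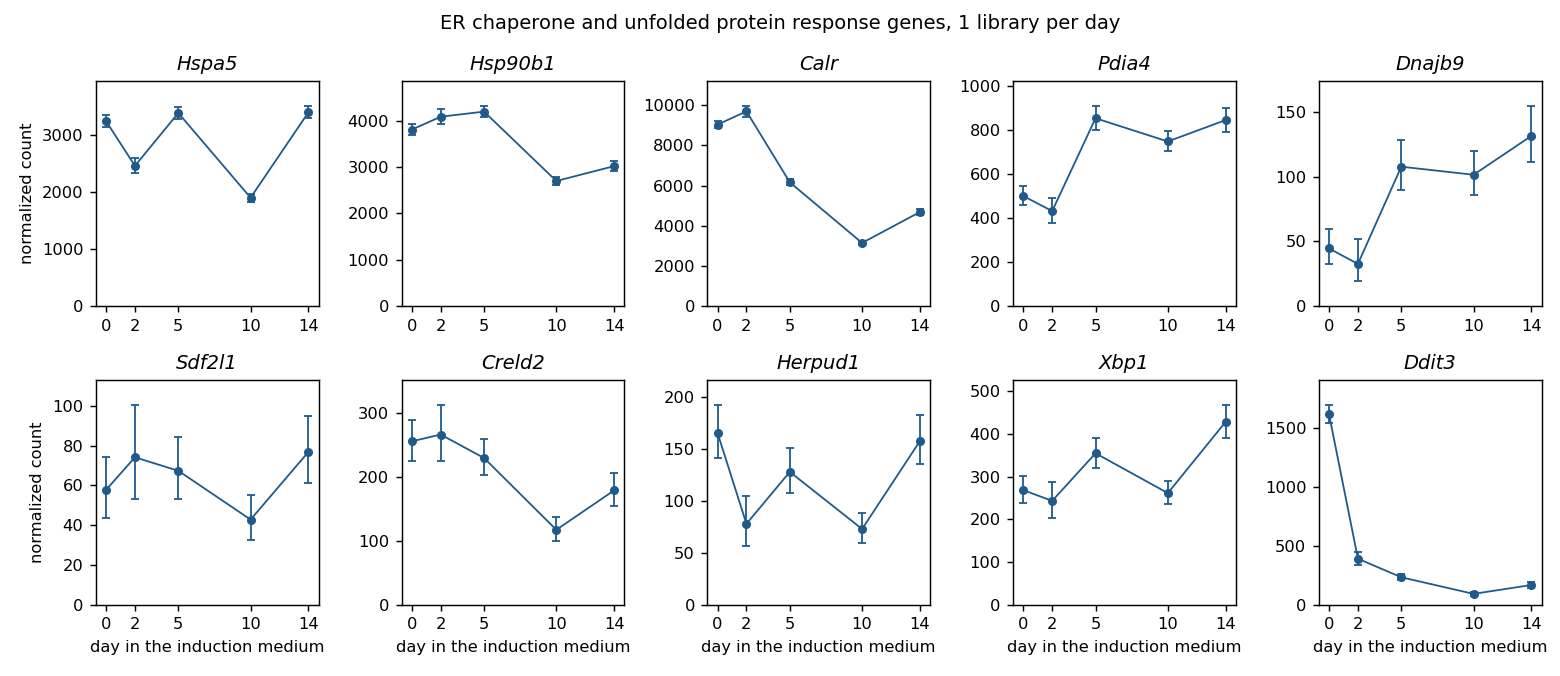
Normalized counts (TMM-scaled expected counts, linear axes from 0) of each of the 10 genes against the day, with 1 library per day and bars for the exact 95% counting interval. On this scale day 10 is the lowest day for Hspa5, Hsp90b1, Calr, Sdf2l1, Creld2, Herpud1 and Ddit3, and day 2 for Pdia4, Dnajb9 and Xbp1. In TPM as given the lowest day was day 2 for Hspa5, Hsp90b1, Calr, Creld2 and Herpud1, day 0 for Sdf2l1, and still day 10 for Ddit3. This order includes a shift of all genes kept, whose median log2 change in TPM was −0.20 on day 2 and 1.09 on day 10.

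Herpud1 (ENSMUSG00000031770, chr8:94386438-94395377, plus strand) encodes a membrane protein that organizes ER-associated degradation. It had 165, 77.8, 128, 72.8 and 157 normalized counts in time order, high on days 0 and 14 and low on days 2 and 10. The log2 changes of the low days were −1.08 (−1.61 to −0.60) and −1.17 (−1.55 to −0.82), against −0.07 (−0.38 to 0.24) at the end. Xbp1 (ENSMUSG00000020484, chr11:5520659-5525893, plus strand) encodes the transcription factor made from IRE1-spliced messenger RNA, and the gene-level values sum its spliced and unspliced forms. Its normalized counts were 268, 243, 355, 261 and 428, highest on day 14 with a log2 change of 0.67 (0.46 to 0.90), a 1.59-fold higher level. Days 0, 2 and 10 were not separated.

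CHOP, the transcription factor at the end of the PERK arm, is encoded by Ddit3 (ENSMUSG00000025408, chr10:127290774-127296288, plus strand), and its change was the largest of the 10. Ddit3 had 1618, 391, 234, 92.7 and 168 normalized counts in time order. Day 0 stood far above every later day, and all neighbours in the order of days were separated by more than counting error on this scale. The order of days 2 and 5 depends on the scale. The log2 change from day 2 to day 5 was −0.74 here and 0.36 in TPM, where the median of all genes kept was 0.86. It was 4.13-fold lower by day 2 (log2 change −2.05, −2.26 to −1.84), 17.3-fold lower at its minimum, day 10 (−4.11, −4.39 to −3.87), and 9.58-fold lower at the end (−3.26, −3.49 to −3.05). Measured per transcript length, Ddit3 went from 750 TPM on day 0, rank 186 among all genes, to 138, 178, 91.2 and 146 TPM at the later time points. Ddit3 shares 68 exonic bases with Mars on the opposite strand, and the kit does not mark strand. Mars had at most 352 expected counts in any library.

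Beside all genes kept, the 10 genes were not a group that moved together past 2-fold. On day 2 none was over 2-fold above day 0 (15.2% of all genes kept were) and 2 were over 2-fold below (13.1%), namely Herpud1 and Ddit3. On day 5 there was 1 above (20.2%) and 1 below (13.6%). On day 10 there was 1 above (28.7%) and 4 below (22.3%), the 4 being Calr, Creld2, Herpud1 and Ddit3, and on day 14 there was 1 above (24.5%) and 1 below (19.9%). The 10 genes had median log2 changes of −0.18 (−0.45 to 0.15) for day 2, 0.10 (−0.14 to 0.17) for day 5, −0.63 (−0.91 to −0.56) for day 10 and −0.002 (−0.23 to 0.19) for day 14. The interval is the median of the members' lower limits to that of their upper limits, and over all genes kept the medians were −0.03, 0.05, 0.14 and 0.07. Leaving out Ddit3 moved the day 10 median to −0.50.

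The day 10 library was low for the 10 genes against both of its neighbours. From day 5 to day 10 all 10 were lower, as were 50.7% of all genes kept, with a median log2 difference of −0.72 (−0.96 to −0.51). For 9 of them the counting interval excluded no change, Dnajb9 being the exception at −0.09 (−0.44 to 0.27). From day 10 to day 14 all 10 were higher, as were 51.6% of all genes kept, with a median of 0.66 (0.43 to 0.91), and every one of the 10 intervals lay above 0. Herpud1 showed the largest step up, 2.14-fold, and Hsp90b1 the smallest, 1.12-fold. The 2 steps share the day 10 library, so they are not separate observations. The 10 genes together took 0.493%, 0.435%, 0.529%, 0.331% and 0.435% of the counts in time order. The exact interval was 0.486% to 0.500% for day 0 and 0.325% to 0.337% for day 10.

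Gene length moved with the result on day 10. The genes kept were split by transcript length into 10 classes of equal size. In the class with the shortest transcripts the median log2 change from day 0 was −1.47, and in the class with the longest it was 1.04. Ddit3, with a mean length of 793 bases, belonged to the shortest class (class 1), Sdf2l1 and Creld2 to class 2, and the other members to classes 4, 5 and 6. After the median of each gene's length class was subtracted, Ddit3 was still at −2.64 on day 10, Calr at −1.37, Herpud1 at −1.02, Hspa5 at −0.87 and Hsp90b1 at −0.70, whereas Creld2 stood at −0.26 and Sdf2l1 at 0.43. Dnajb9 was at 1.32 and Pdia4 at 0.47 on the same scale. With this subtraction the members' median step was −0.51 from day 5 to day 10, with 1 of the 10 above its length class, and 0.41 from day 10 to day 14, with all 10 above.

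**Figure D2:**
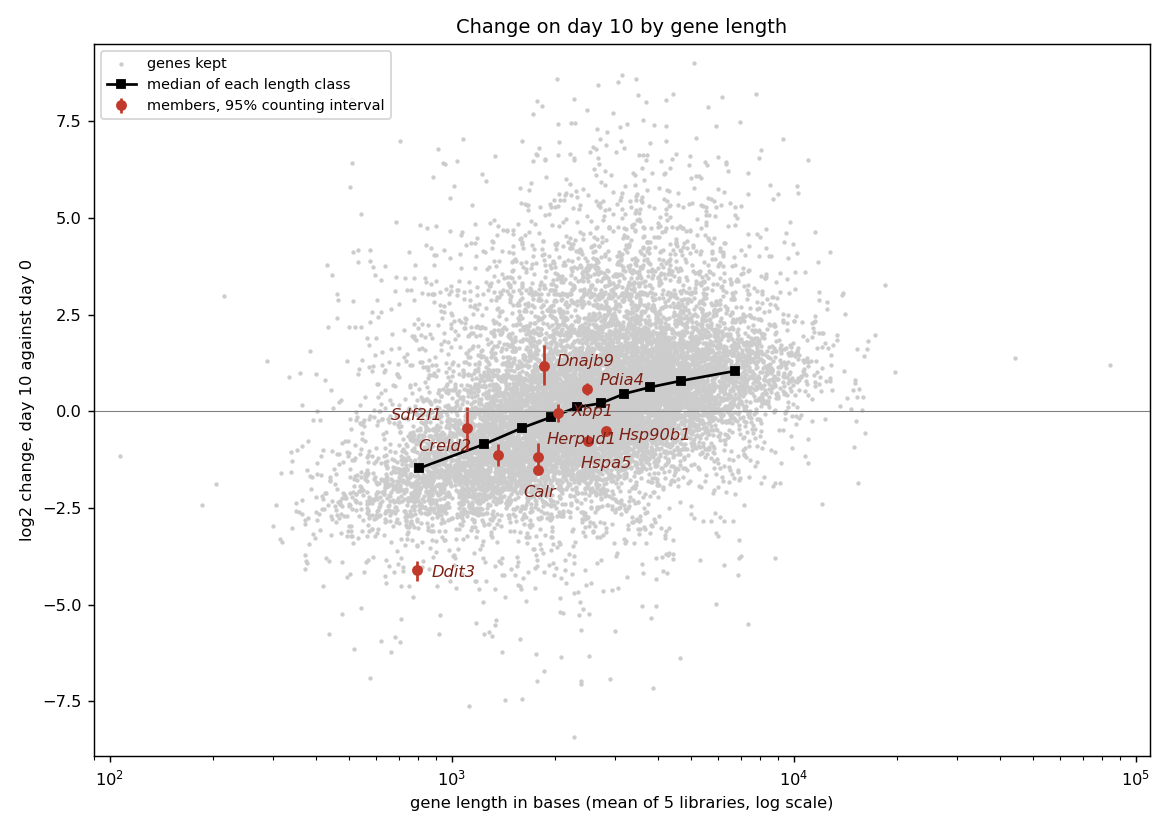
Log2 change from day 0 to day 10 (TMM-scaled counts) against gene length in bases on a log axis, with each gene kept in grey, the median of each length class as black squares, and the 10 genes in red with 95% counting intervals. The black line goes from −1.47 for the shortest genes to 1.04 for the longest; Ddit3 lies below it and Dnajb9 above it.

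In TPM the whole distribution was shifted, with a median log2 change over all genes kept of −0.20, 0.61, 1.09 and 0.78 at the 4 later time points, so changes in TPM are set beside it. The members' median in TPM on day 10 was 0.55, which is 0.54 below the median of all genes kept, and on day 14 it was 1.10, which is 0.32 above it. Hspa5 went from 450 TPM on day 0 to 600 TPM on day 10 and 900 TPM on day 14. In TPM as given, its day 10 change thus had the opposite sign to that in TMM-scaled counts. The same held for Hsp90b1, Sdf2l1, Creld2 and Xbp1. Beside the all-gene median of 1.09, however, Hspa5 (0.41), Hsp90b1 (0.69), Sdf2l1 (0.70) and Creld2 (0.036) were lower on day 10, and only Xbp1 (1.20) of these was higher. Quantile normalization also turned the day 10 change of Hspa5 to 0.053, of Hsp90b1 to 0.42 and of Xbp1 to 0.13, and the day 14 change of Hsp90b1 to 0.33. Ddit3 was lower than on day 0 in TPM on every later day, and Dnajb9, at 8.44 TPM on day 0 and 45.6 TPM on day 14, was above the all-gene median on days 5, 10 and 14. For the step from day 5 to day 10 none of the 10 lay above the all-gene median in TPM, and for the step from day 10 to day 14 all 10 did. In TPM itself 3 of the 10, Pdia4, Dnajb9 and Xbp1, were higher on day 10 than on day 5, and Hsp90b1 and Pdia4 were lower on day 14 than on day 10.

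**Figure D3:**
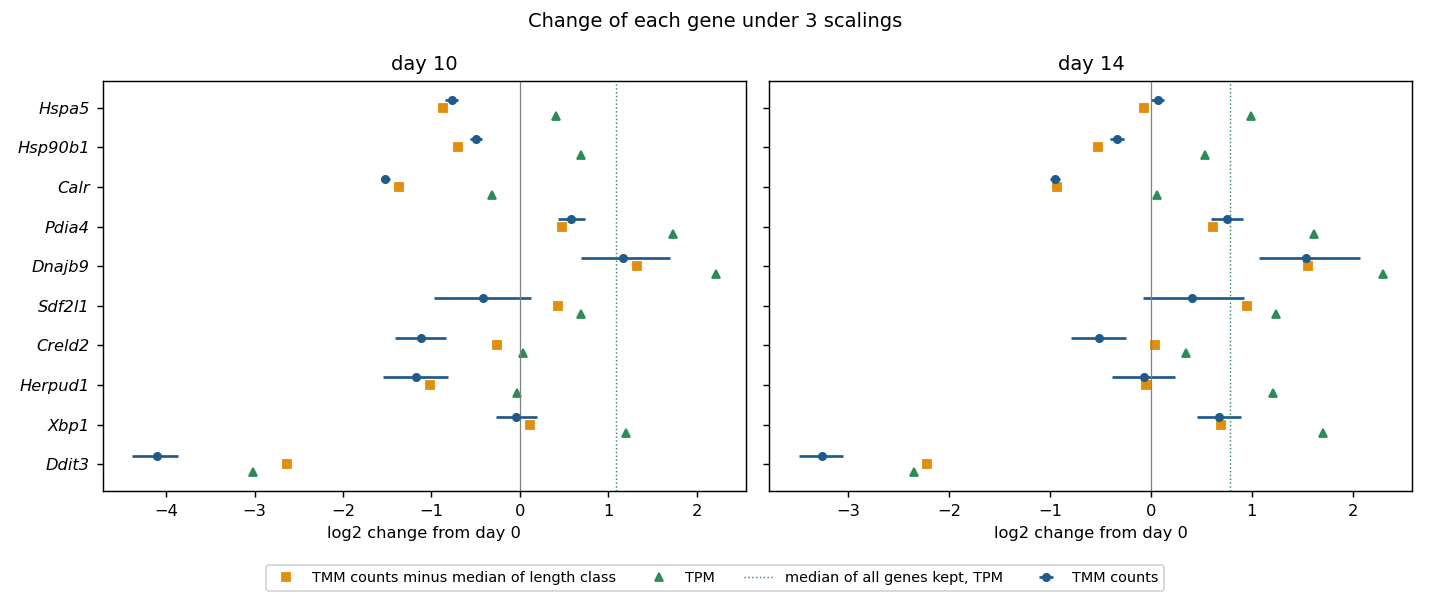
Log2 change from day 0 of each of the 10 genes on day 10 and day 14 as TMM-scaled counts with 95% counting intervals (circles), after subtraction of the median of the gene's length class (squares) and in TPM (triangles), the dotted line marking the median of all genes kept in TPM at 1.09 and 0.78. Ddit3 is far below 0 and Dnajb9 above 0 on all 3 scales on both days.

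Ratios of 2 genes within a library need no scaling between libraries. BiP and Hsc70, encoded by Hspa8, are HSP70 proteins of the ER and the cytosol. The ratio of Hspa5 to Hspa8 expected counts was 0.217 (exact interval 0.209 to 0.226), 0.182, 0.486, 0.716 (0.681 to 0.752) and 0.607 in time order. The last 3 days were above the first 2, by 3.29-fold on day 10 against day 0. In TMM-scaled counts both genes were lower on day 10 than on day 0. In TPM Hspa5 was higher, at a log2 change of 0.41, but below the median of all genes kept, 1.09. Hspa8 went from 14900.2 to 2649 normalized counts between day 0 and day 10 (log2 change −2.49, −2.54 to −2.44), a larger change than that of Hspa5. Hspa8 is in length class 4 and Hspa5 in length class 5. The matching pair of HSP90 genes, Hsp90b1 to the cytosolic Hsp90ab1, had ratios of 0.412, 0.535, 0.660, 0.650 and 0.618, higher on every later day than on day 0 (0.397 to 0.428) and 1.58-fold higher on day 10. Hspa8 and Hsp90ab1 have near-identical copies in the genome among which RSEM divides reads, and their counts are uncertain to that extent.

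Within the group, Dnajb9 relative to Hspa5 went from 0.0138 (0.0100 to 0.0185) on day 0 to 0.0535 (0.0449 to 0.0633) on day 10, and Pdia4 relative to Hspa5 from 0.155 to 0.395. Ddit3 relative to Hspa5 started at 0.500 (0.471 to 0.531) and was 0.159, 0.0691, 0.0489 and 0.0496 at the later time points, 10.1-fold lower at the end. Calreticulin relative to its membrane-bound relative calnexin, encoded by Canx, had count ratios of 4.19, 6.48, 2.92, 1.75 and 3.19 in time order, lowest on day 10. Canx is not a member. Calr is in length class 4 and Canx in class 7, whose median log2 changes on day 10 were −0.15 and 0.46. Ddit3 is in class 1 and Hspa5 in class 5, with medians of −1.47 and 0.10, so length enters these 2 ratios. Dnajb9, Pdia4 and Ddit3 therefore did not keep fixed proportions to Hspa5, and Pdia4 is in the same length class as Hspa5.

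**Figure D4:**
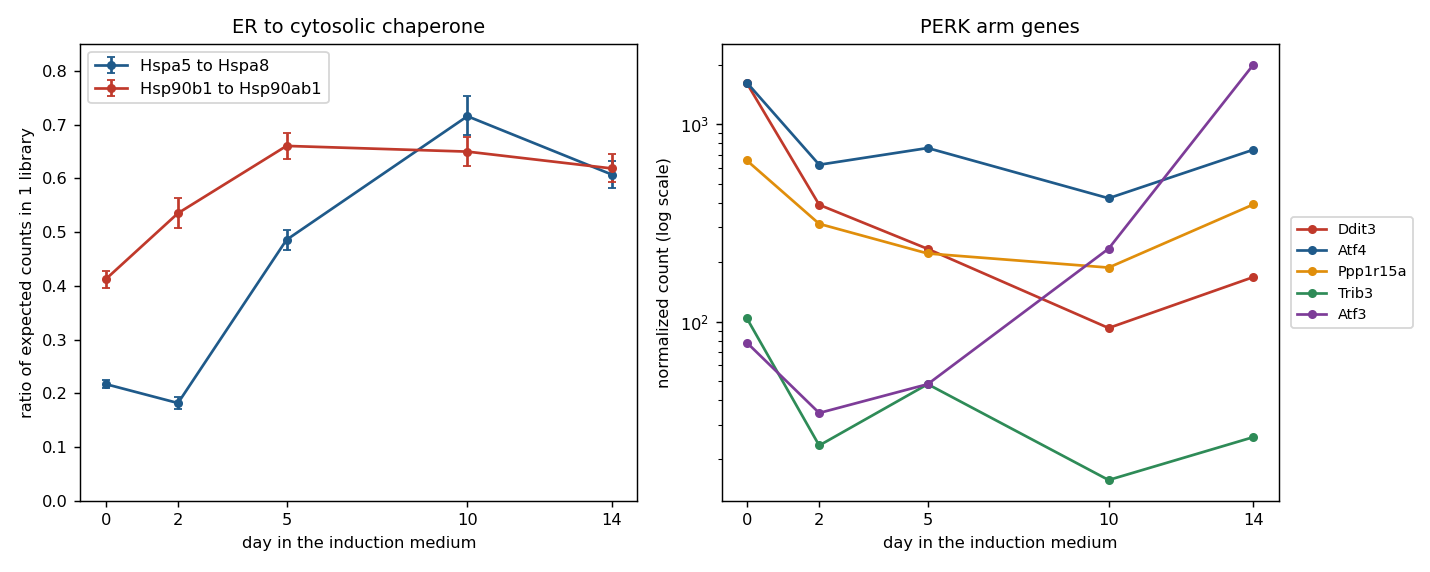
Left, ratio of expected counts of Hspa5 to Hspa8 and of Hsp90b1 to Hsp90ab1 in each library with exact 95% intervals (linear axis from 0); both are higher on days 5, 10 and 14 than on day 0. Right, normalized counts on a log axis of Ddit3, Atf4, Ppp1r15a, Trib3 and Atf3 by day; the first 4 are highest on day 0 and Atf3 reaches 2007 on day 14.

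Genes of the PERK arm other than Ddit3 were considered next. Atf4, which encodes the transcription factor upstream of CHOP, had 1629, 624, 759, 422 and 744 normalized counts in time order, highest on day 0 and 3.85-fold lower on day 10 (log2 change −1.95, −2.09 to −1.81). Ppp1r15a, encoding the GADD34 subunit that directs dephosphorylation of eIF2alpha, was 3.48-fold lower on day 10 (−1.80, −2.02 to −1.60). Trib3, a pseudokinase gene known as a target of ATF4 and CHOP, was 6.28-fold lower on day 10, from 105 expected counts to 22. Atf4, Ppp1r15a and Trib3 were also lower on every later day after subtraction of their length class and in TPM. Of the 9 genes listed as targets of the PERK and CHOP arm, 2 were over 2-fold above and 4 over 2-fold below day 0 on day 10, beside 28.7% and 22.3% of all genes kept, and their median log2 change was −0.31. Relative to their length classes the median was −0.76, again with 2 above and 4 below. Bcl2l11, which encodes the BH3-only protein BIM, was 3.94-fold higher on day 10 (1.98, 1.55 to 2.48, and 1.36 after subtraction of its length class). Atf3, a stress-inducible transcription factor gene, had 78.2, 34.4, 48.1, 234 and 2007 normalized counts, 25.4-fold above day 0 on day 14 (4.66, 4.36 to 5.02), on the day when Ddit3 was 9.58-fold below.

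The sensors themselves had few counts on day 0. Eif2ak3, which encodes PERK, went from 27 expected counts on day 0 to 219 on day 10, a 5.67-fold higher normalized level (log2 change 2.50, 1.97 to 3.18, and 1.71 after subtraction of its length class). Ern1, which encodes IRE1alpha, went from 26 to 99 expected counts (1.42, 0.82 to 2.14), but was at 0.38 after that subtraction. Atf6 went from 92 to 211 (0.72, 0.37 to 1.10) and was at −0.32 after it, so its direction depends on length. Mbtps1, which encodes the site-1 protease that cleaves ATF6 and SREBP precursors, was above day 0 on each later day, by 2.01-fold on day 2 and 3.53-fold on day 10 (log2 change 1.82, and 1.03 after subtraction of its length class). Of the 15 genes in the list of sensors and regulators, 6 were over 2-fold above day 0 on day 10 and 4 over 2-fold below, beside 28.7% and 22.3% of all genes kept, with a median of 0.17. After subtraction of length-class medians 3 were above and 4 below, and the median was −0.04. Map3k5 is among the 6: it had 0 counts on day 0 and 41 on day 10, at least 9.86-fold higher when day 0 is set to 3 counts.

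Lists of other ER genes were then set beside the 10. Of 14 other ER chaperones and lectins, 1 was over 2-fold above and 4 over 2-fold below on day 10 (28.7% and 22.3% of all genes kept), with a median log2 change of −0.47, and after subtraction of length-class medians none was past 2-fold in either direction. Fkbp2, a prolyl isomerase gene, was at −2.06 on day 10 before that subtraction and −0.59 after it, and Manf, a secreted ER stress protein gene, at −1.75 and −0.27. Mydgf, encoding a secreted growth factor resident in the ER, was at −1.35 and −0.92. Of 15 other protein disulfide isomerases and ER oxidases, 1 was over 2-fold above and 3 over 2-fold below on day 10 (28.7% and 22.3% of all genes kept), with a median of −0.51. Relative to their length classes 1 was above and 4 below, with a median of −0.36. Pdia5 was the farthest, at 635, 230, 189, 76.4 and 91.2 normalized counts in time order, 8.22-fold lower on day 10 (−3.04, −3.36 to −2.76). Its level was thus lowest on the day when Pdia4 was 1.49-fold above day 0. Erp29, encoding a thioredoxin-fold ER chaperone without the active-site cysteines, was 3.99-fold lower on day 10 (−1.14 on the log2 scale after subtraction of its length class) and Pdia6, another isomerase gene, 2.04-fold lower.

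Of 20 genes of ER-associated degradation that were kept, 2 were over 2-fold above and 3 over 2-fold below on day 10 (28.7% and 22.3% of all genes kept). On day 14 there were 2 above and 0 below (24.5% and 19.9%), and 0 above and 1 below after subtraction of length-class medians. The medians were 0.11 and 0.27, and turned to −0.40 and −0.11 after that subtraction. On day 14 Edem3, encoding a mannosidase-like protein that marks glycoproteins for degradation, was at 1.29 (0.84 to 1.80), Erlec1, encoding an ER lectin, at 1.12 (0.77 to 1.50), and Derl2, encoding a channel component, at −0.94 (−1.23 to −0.66). The translocon and signal peptidase genes held 0 above and 6 below of 15 on day 10 (28.7% and 22.3% of all genes kept), with a median of −0.88. Relative to their length classes there were again 0 above and 6 below, with a median of −0.67. The small subunits Sec61g and Sec61b were at −2.60 and −2.15 on day 10, and at −1.12 and −0.67 relative to the shortest length class, to which they belong. Srprb, encoding the membrane anchor of the signal recognition particle receptor, was at −1.87 on day 10.

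Among 10 genes of procollagen folding and modification, 1 was over 2-fold above and 4 over 2-fold below on day 10 (28.7% and 22.3% of all genes kept), with a median of −0.52. Relative to their length classes 0 were above and 4 below, with a median of −0.59. Without that subtraction P4ha1, a prolyl 4-hydroxylase subunit gene, was at −2.12 (−2.30 to −1.95), Fkbp10, a collagen chaperone gene, at −1.48, and P4ha2 at −1.29. The 15 cytosolic and mitochondrial chaperones had the lowest median of the 8 lists on days 5, 10 and 14, at −0.54, −1.15 and −0.92, with 0 above and 9 below on day 10 (28.7% and 22.3% of all genes kept). Hspb1, a small heat shock protein gene, was 22.8-fold lower on day 10 (−4.51, −4.89 to −4.21), and Hspe1, the mitochondrial co-chaperonin gene, 7.96-fold lower (−2.99, −3.17 to −2.83). After subtraction of their length class they were at −3.04 and −1.52 on day 10. After subtraction of length-class medians this list still had 9 of 15 genes over 2-fold below day 0 on day 10. In TPM the medians of the 8 lists on day 10 lay between 0.037, for this list, and 1.34, for the sensors and regulators. That list and ER-associated degradation, at 1.19, were above the all-gene median of 1.09, and the others were below it.

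**Figure D5:**
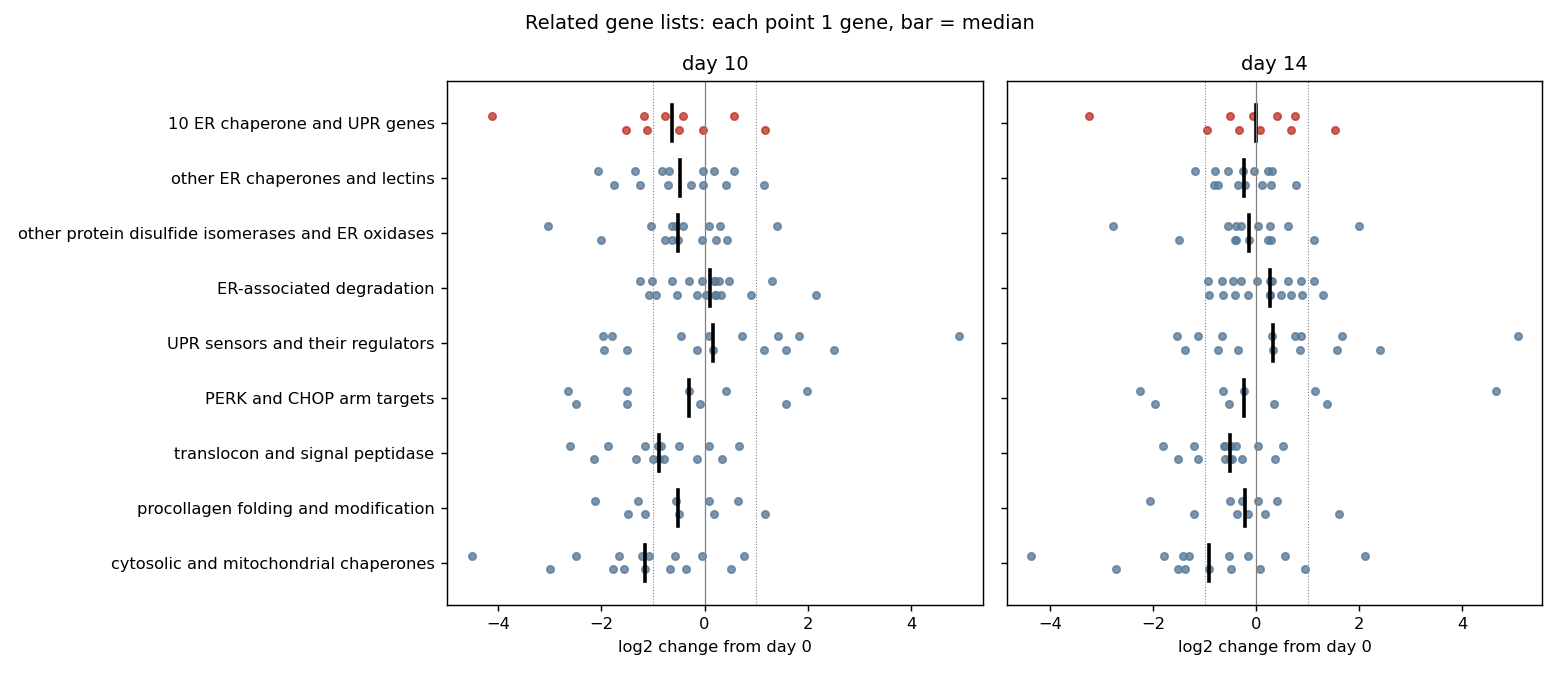
Log2 change from day 0 (TMM-scaled counts) on day 10 and day 14 for the 10 genes (red) and each kept gene of 8 related lists (blue), with a black bar at the median and dotted lines at 2-fold. The medians on day 10 are −0.63 for the 10 genes and −1.15 for the cytosolic and mitochondrial chaperones.

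The 4 members with an ERSE in the promoter were at −0.77 (Hspa5), −0.50 (Hsp90b1), −1.52 (Calr) and −1.12 (Creld2) on day 10, and Herpud1 with ERSE-II at −1.17. Of the 5 members with neither element in the windows searched, Ddit3 was at −4.11, Sdf2l1 at −0.42, Xbp1 at −0.04, Pdia4 at 0.58 and Dnajb9 at 1.17. For Pdia4 and Dnajb9 the windows missed bases next to the annotated start, so their lack of an element is not established. Genes with the ERSE lay on both sides of day 0. The symbols of 17 kept genes, the members included, matched a promoter with this element. Of these 17, 4 were over 2-fold above day 0 on day 10 and 3 over 2-fold below, beside 28.7% and 22.3% of all genes kept. Their median was 0.11 (−0.26 after subtraction of length-class medians). Among genes of the other lists, Canx, Dnajc3, Ero1b, Pdia6, Derl3 and Syvn1 also held an ERSE, and Dnajb11 held ERSE-II. Ero1b carries the older symbol Ero1lb among the measured genes, so it is not counted in the 17. It was at 1.41 on day 10, with 4 expected counts on day 0 and 17 on day 10. Pdia6 was at −1.03 and Dnajc3, encoding the J-domain protein p58IPK, at 0.42 on day 10. These values are a description, since genes with the element were set beside the members after their levels were known.

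The genes nearest to the median profile of the 10, by the root mean square distance of the 4 log2 changes among 8264 other genes with at least 100 expected counts in a library, were Rilpl2 (0.06), Chmp6 (0.08), Uap1 (0.08), Tmem38a (0.10), Alas1 (0.11), Myd88 (0.11), Strada (0.11) and Fam98b (0.12). Uap1 encodes an enzyme that makes UDP-N-acetylglucosamine, and Tmem38a a cation channel of the ER and sarcoplasmic reticulum. None belongs to the lists above.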

How the data were processed

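RNA-seq libraries (TruSeq RNA kit, unstranded) were made from 5 time points, 1 library each. Per the submitters' processing notes, reads were aligned with Bowtie to mm10 and quantified with RSEM; versions are not given in the sources used here. The authors deposited, per gene, expected counts, TPM and FPKM, RSEM's estimates that divide shared reads among genes; FPKM was used for no result. The labels give both day 14 and day 15 for the last library, and 14 is used. Here, expected counts were rounded for intervals and scaled by TMM (edgeR 4.0.16, R 4.3.3; TMM uses all 27729 genes). Changes are differences of log2(normalized count + 1), which understates the change of low genes; genes with 10 or more expected counts in at least 1 library were kept (13346). Intervals are Clopper-Pearson, 95%. A count of 0 allows up to 3 counts, that is between 0.771 and 1.33 per 1000000 counts. Genes past 2-fold were counted, and no test was run. Scripts were tested on simulated data. Symbols came from GENCODE M21 (27247 of 27729 IDs matched), and promoters from RefSeq (all 10 members matched). Named genes were the 10 members, in each list the 3 with the largest change on the day its median was farthest from 0 (100 or more counts in a library), Hspa8 and Hsp90ab1, and the 8 nearest profiles; Canx, Dnajc3, Dnajb11, Ero1b, Derl3, Syvn1, Eif2ak3, Ern1, Atf6 and Map3k5 were named after their values were seen. Members and lists were chosen with earlier results of these data known. Proteins were not analysed here.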

Additional observations from a re-analysis of the deposited data

How the results depend on the processing

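No paired analysis was possible because each day has 1 library and no result comes from a test. Leaving out a replicate was likewise not possible. DESeq2 size factors, a pseudocount of 5 and library sizes without Gm42418 and Lars2 moved no median or count of members past the limits set for it; the cause of the shifts below was not tested. In TPM the members' median log2 change was −0.46 on day 2, 0.82 on day 5, 0.55 on day 10, a reversed sign, and 1.10 on day 14, and the step from day 5 to day 10 was −0.28; Creld2 on day 10 turned to 0.036. TPM gave 3, 3 and 5 members over 2-fold above day 0 on days 5, 10 and 14 and 1 below on day 10. The TPM changes and counts here include the shift of all genes kept, whose median was 1.09 on day 10. Quantile normalization gave medians of 0.45, −0.17 and 0.24 on days 5, 10 and 14, with 2, 0 and 2 members over 2-fold above and 1 below on day 2. Subtracting the median of the gene's length class gave −0.48 on day 10 and 0.41 for the step from day 10 to day 14. Without Ddit3, an alternative chosen after seeing the data, as were those of the steps between days, the day 10 median was −0.50, and with only members at 100 or more counts in every library the day 14 median was −0.33. In summed TPM the members held 0.370%, 0.233%, 0.451%, 0.341% and 0.422% in time order, and without Gm42418 and Lars2 the day 2 share was 0.464%. The Hspa5 to Hspa8 ratio on day 14 changed by 1.55 on the log2 scale in TPM against 1.48 in counts. Of the 40 changes of single members from day 0, 5 stayed within their counting interval in TPM, 22 after subtraction of the length class, 24 with quantile normalization, 39 with DESeq2 size factors and 40 with each of the other settings. Low counts limit Dnajb9 and Sdf2l1 most.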
